A study of Mus musculus with 6 samples.

Results

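The purine and pyrimidine metabolism genes described here are 44 of the 24532 genes in the deposited table, taken by gene symbol to cover synthesis of nucleotides from small precursors, salvage of bases and nucleosides, the nucleotide kinases and the supply of deoxynucleotides. Their expression was compared between mouse primary articular chondrocytes transfected with *Sephs1* siRNA and the same kind of cells transfected with negative control siRNA, with 3 libraries in each group. The list is a pathway list with no threshold on any value, but the group was chosen by the fold changes of this same contrast as well as by pathway, since they were known when it was proposed. The values below therefore describe these genes, and the p-values, which come from a fit across all genes, are not independent support for the choice of the group. The chondrocytes came from ICR mice 5 days old and were grown at 3% oxygen. In both groups, siRNA was applied at 50 nM for 12 h, followed by 48 h in fresh medium, and the transfection was done 2 times. The labels name no other genetic change or agent in either group. The replicates were biological replicates, and animals were not named per library.

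Nucleotides are made along a de novo route and a salvage route. In the purine route the ring is built stepwise on phosphoribosyl pyrophosphate (PRPP) until inosine monophosphate (IMP) is reached, which branches to AMP and GMP, while in the pyrimidine route the ring is made first and then joined to PRPP. Ribonucleotide reductase turns ribonucleotides into deoxynucleotides, and thymidylate synthase supplies the thymine nucleotide that is particular to DNA. Salvage enzymes such as thymidine kinase and adenosine kinase return bases and nucleosides to the nucleotide pools, and several genes of deoxynucleotide supply are known to be expressed most in cells that are replicating their DNA.

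Short sequences that promoters of nucleotide and cell cycle genes are known to carry were looked for on both strands of the RefSeq promoter windows of GRCm38.p6, which run from 250 bases before a transcription start to 50 bases after it. Windows were found for 42 of the 44 genes, all but *Pfas* and *Dhodh*. The E box CACGTG, a site for MYC and related factors, was present in 8 of 59 windows (13.6%), against 7.15% of all 32851 windows, and these belonged to *Ak4*, *Atic*, *Dtymk*, *Impdh2*, *Nme1*, *Paics* and *Tyms*. The letters CCAAT, the core of the site of the factor NF-Y, were present in 18 of 59 windows (30.5%), against 37.4% of all windows. E2F-type letters, searched as TTTCGCG, as its variant TTTGGCG and as its variant TTTCCCG, were found in 2 of 59 windows (3.39%), of *Ppat* and *Prps2*, against 5.58% of all windows. A match is a string of letters and not a measured binding site, and no match says only that these letters are not in the window. The stretches below lie before the start sites of genes to which the results return, all of them genes with a match. *Tk1* and *Ak1*, at the ends of the range of fold changes, and *Ctps*, with the smallest p, had no match in their windows. The stretches are printed 5′ to 3′ on the strand of the gene with every E box and every CCAAT in capitals, which reads ATTGG where it lies on the other strand.
*Rrm1*, chr7:102441545-102441694, plus strand: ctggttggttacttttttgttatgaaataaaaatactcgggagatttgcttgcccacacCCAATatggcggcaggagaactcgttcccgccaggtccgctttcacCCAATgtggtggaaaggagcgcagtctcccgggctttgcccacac
*Rrm2*, chr12:24708104-24708233, plus strand: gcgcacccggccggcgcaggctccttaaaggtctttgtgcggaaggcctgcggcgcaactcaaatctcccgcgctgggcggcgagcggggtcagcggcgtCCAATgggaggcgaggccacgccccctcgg
*Tyms*, chr5:30073626-30073745, minus strand: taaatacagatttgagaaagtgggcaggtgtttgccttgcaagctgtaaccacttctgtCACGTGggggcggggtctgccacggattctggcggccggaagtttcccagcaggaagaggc
*Adk*, chr14:21052509-21052573, plus strand: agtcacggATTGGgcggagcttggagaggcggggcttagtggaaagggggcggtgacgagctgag
*Nme1*, chr11:93968273-93968302, minus strand: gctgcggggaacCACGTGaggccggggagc
*Paics*, chr5:76951087-76951116, plus strand: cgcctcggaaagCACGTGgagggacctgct
*Atic*, chr1:71557126-71557155, plus strand: gaggaggggcgggacctcggggtCACGTGg
Both ribonucleotide reductase genes shown hold CCAAT, and *Rrm1* holds it at 2 places in the same orientation. The E box of *Atic* ends next to the start site, that of *Nme1* begins 18 bases before it and that of *Paics* 203 bases before it. Genes with an E box stood on both sides of 0 in their fold changes, with *Tyms* and *Ak4* positive and the other 5 negative.

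The libraries held 66866285, 71080135 and 62316889 reads with *Sephs1* siRNA and 58214060, 80887889 and 74535734 reads with control siRNA, and 14223 genes had a read in every library. *Sephs1*, the siRNA target on chromosome 2 (4881564 to 4910557), stood at 36.1, 24.9 and 21.6 CPM (the read count scaled to library size, after TMM normalization) with *Sephs1* siRNA and at 50.7, 44.7 and 44.7 CPM with control siRNA. The groups did not overlap, and the log2 fold change was -0.76 (standard error, SE, of 0.19; adjusted p = 0.392 from edgeR, 0.04 when edgeR was fitted with a block for replicate number, and 0.0181 from DESeq2). All 14 chondrocyte markers had reads in every library. They summed to 110300, 116800 and 93220 CPM with *Sephs1* siRNA and to 122300, 132700 and 99340 CPM with control siRNA. The 8 fibroblast and synovium markers summed to 21550, 19840 and 23590 CPM with *Sephs1* siRNA and to 24220, 20980 and 27330 CPM with control siRNA. In both groups, replicate 3 was the lowest for the chondrocyte list and the highest for the fibroblast and synovium list. The 6 osteoblast markers summed to between 37.7 and 59.1 CPM with *Sephs1* siRNA and between 54.7 and 78.3 CPM with control siRNA. The 4 muscle markers summed to at most 5.30 CPM in any library. Of 8 macrophage and leukocyte markers, *Cd68*, *Csf1r* and *Lyz2* had reads in every library, *Itgam* and *Cd3e* were at 0 in all 6, and the list summed to between 5.42 and 7.04 CPM with *Sephs1* siRNA and between 4.44 and 6.26 CPM with control siRNA. Of 4 endothelial markers, *Pecam1* had reads in every library and *Cdh5* was at 0 in all 6, and the list summed to at most 0.363 CPM in any library. Of 13 measured interferon response genes, 12 had an unadjusted p under 0.05 with higher values under *Sephs1* siRNA, with a list median of 1.20 on the log2 scale, and the part of such a response in the values below was not tested. Equally numbered libraries of the groups shared part of their deviations, so ratios within replicate pairs 1, 2 and 3 are given beside the pooled values. For *Sephs1* these log2 ratios were -0.49, -0.84 and -1.05, so the target was lowered least in pair 1 and most in pair 3. The relation of this drop to the pair ratios of other genes was not tested.

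All 44 genes had a read in every library, and in edgeR 13 had a positive and 31 a negative fold change. The largest positive ones were those of *Tk1*, *Rrm1* and *Rrm2*, genes of DNA precursor supply. *Dut*, *Dtymk*, *Tk2* and *Dguok*, which belong to the same supply, had negative ones. No gene of the 44 passed an adjusted p under 0.05 over all genes in edgeR's quasi-likelihood test, a threshold that 0.0141% of the 14223 genes passed, and none passed it in DESeq2, where 1.48% of genes did. At an unadjusted p under 0.05, 3 of the 44 genes (6.82%) were higher with *Sephs1* siRNA, namely *Tk1*, *Rrm1* and *Rrm2*, where 4.98% of all genes were. At the same threshold 6 (13.6%) were lower, namely *Ctps*, *Nme1*, *Atic*, *Guk1*, *Ak1* and *Uck2*, where 3.63% of all genes were. The count of 3 was 0 without *Sephs1* siRNA replicate 1 or 2 or without control replicate 1 or 2, and the count of 6 was 2 without *Sephs1* siRNA replicate 2 and 3 without control replicate 1. Under the replicate block, 3 genes (6.82%) were higher at an unadjusted p under 0.05, where 13.1% of all genes were. At that threshold 17 (38.6%) were lower, where 11.2% of all genes were. The lower ones were the same 6 and *Cad*, *Nme2*, *Prps1*, *Gart*, *Paics*, *Impdh1*, *Impdh2*, *Hprt*, *Aprt*, *Adk* and *Cmpk1*. At an adjusted p under 0.05 that fit called 2 genes, *Paics* and *Adk*, both lower, where 1.65% of all genes were called and 0.816% were called lower.

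**Figure D1:**
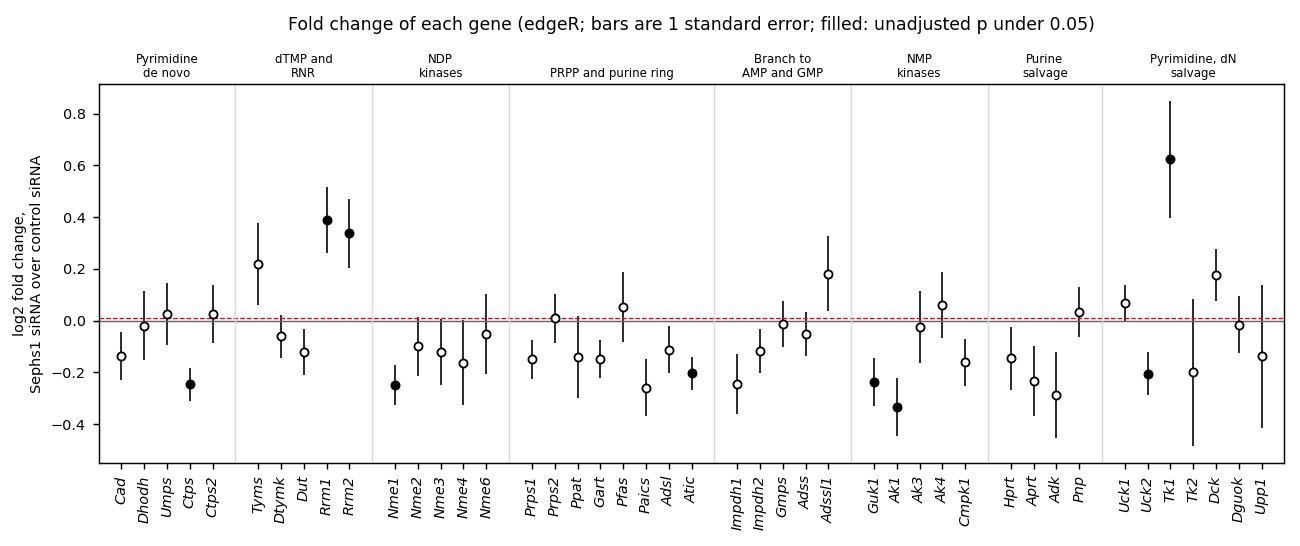
Log2 fold change of each of the 44 genes, *Sephs1* siRNA over control siRNA, by role (RNR, ribonucleotide reductase; NDP and NMP, nucleoside diphosphate and monophosphate; dN, deoxynucleoside), with bars of 1 standard error from edgeR and the median of all 14223 genes as a dashed line at 0.009. Filled points have an unadjusted p under 0.05; *Tk1* at 0.62, *Rrm1* at 0.39 and *Rrm2* at 0.34 stand above the rest, and 31 of the 44 points lie below 0.

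The median log2 fold change of the 44 genes was -0.115, against 0.009 for all genes tested, and it was -0.049 against 0.041 with limma on log2(FPKM + 1), -0.054 against 0.062 with limma on log2(FPKM + 0.1) and -0.064 without control replicate 3. In the edgeR fit, 31 of the 44 genes (70.5%) had a negative fold change, against 48% of all genes. The range ran from -0.33 (*Ak1*) to 0.62 (*Tk1*). Within the replicate pairs, 18 genes (40.9%) were lower with *Sephs1* siRNA in all 3 pairs and 3 (6.82%), *Tk1*, *Uck1* and *Adssl1*, were higher in all 3, where the shares over all genes were 23.6% and 24.2%. The pair medians were -0.123, 0.009 and -0.138, so the group as a whole did not lean downward in pair 2. RNA from whole cultures was measured, and fewer cells of a type and less RNA per cell cannot be told apart.

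The levels of the 44 genes, given as FPKM so that genes can be compared per length, spanned over 2 orders of magnitude. *Nme2*, a nucleoside diphosphate kinase, was the most abundant at 229, 226 and 282 FPKM with *Sephs1* siRNA and 231, 233 and 290.2 FPKM with control siRNA, higher than 98.4% of the genes tested. *Paics* (85 ± 7.86 FPKM with *Sephs1* siRNA and 97.7 ± 7.66 FPKM with control siRNA, SD, n = 3 each) and *Nme1* (72 ± 4.07 FPKM with *Sephs1* siRNA and 82.1 ± 4.91 FPKM with control siRNA) followed. At the low end stood *Upp1*, uridine phosphorylase, at 0.98 ± 0.290 FPKM with *Sephs1* siRNA and 1.05 ± 0.194 FPKM with control siRNA, and *Adssl1*, the muscle form of adenylosuccinate synthase, at 2.22 ± 0.110 FPKM with *Sephs1* siRNA and 1.88 ± 0.265 FPKM with control siRNA. In the plot of levels, the points of each gene lie close together beside the distances between genes, and the widest spreads within a group are those of *Tk1*, *Tk2* and *Upp1*.

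**Figure D2:**
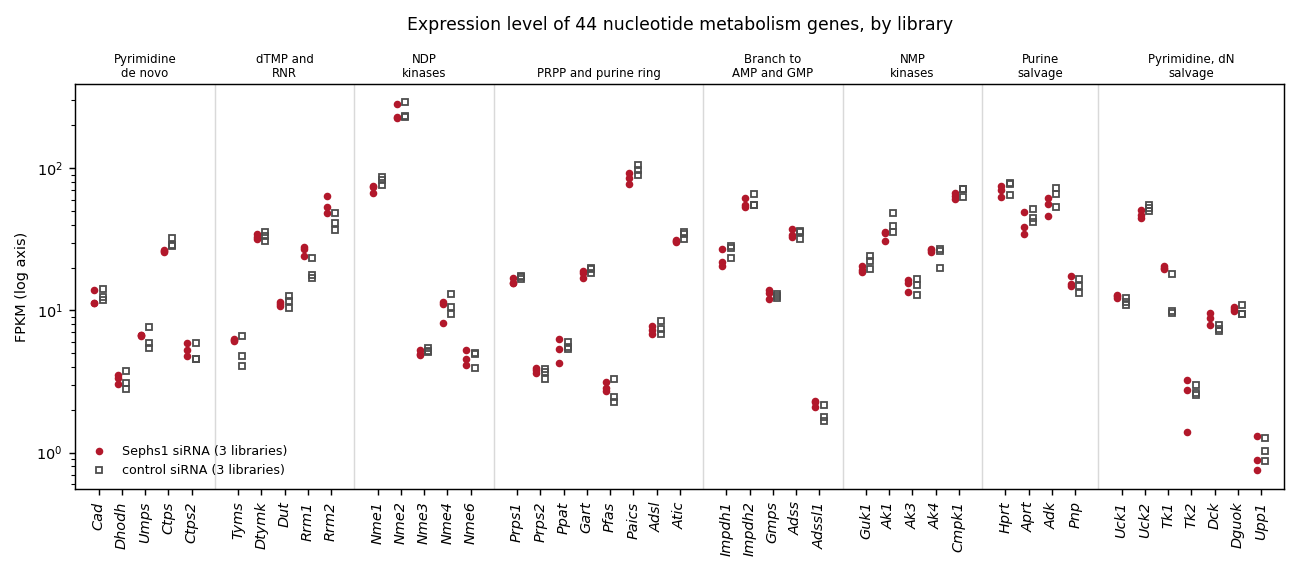
FPKM of the 44 genes in the 3 *Sephs1* siRNA libraries (filled circles) and the 3 control siRNA libraries (open squares), on a log axis, by role. *Nme2* stands highest at 226 to 282 FPKM and *Upp1* lowest at about 1 FPKM, and 1 *Sephs1* siRNA library stands low for *Tk2*.

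The genes of deoxynucleotide supply held all 3 genes that were higher at the unadjusted threshold. *Tk1*, the cytosolic thymidine kinase of cells in S phase (chromosome 11, 117815519 to 117826087), stood at 26.9, 27.6 and 27.4 CPM with *Sephs1* siRNA and at 14.0, 14.2 and 24.9 CPM with control siRNA. The *Sephs1* siRNA libraries lay within 1 CPM of each other and above every control library, but control replicate 3 stood near them and apart from the other controls. The log2 fold change of *Tk1* was 0.62 (SE 0.23, unadjusted p = 0.0287, adjusted p = 0.523 from edgeR), with ratios of 0.95, 0.96 and 0.14 in pairs 1, 2 and 3, and it was 0.95 without control replicate 3. Exons of *Tk1* overlap those of *Afmid* on the opposite strand, and 4.74% of its 50-base stretches occur in other genes, as do 6.48% of those of *Rrm2*, 10.1% of those of *Tyms* and none of those of *Rrm1*. *Rrm1*, the large subunit of ribonucleotide reductase (chromosome 7, 102441695 to 102469771), had 113, 109 and 93.3 CPM with *Sephs1* siRNA and 71.9, 73.9 and 94.4 CPM with control siRNA. Replicates 1 and 2 differed widely and replicate 3 hardly at all, so the groups overlapped at that replicate. For *Rrm1* the fold change came to 0.39 on the log2 scale (SE 0.13, unadjusted p = 0.0195, adjusted p = 0.493 from edgeR), with pair ratios of 0.65, 0.56 and -0.02.

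*Rrm2*, the small subunit whose abundance is known to rise and fall with the cell cycle (chromosome 12, 24708254 to 24714146), showed the same arrangement. It had 118, 140.3 and 102 CPM with *Sephs1* siRNA and 85.5, 94.1 and 106 CPM with control siRNA. Here too the third pair went against the others, and the log2 fold change of 0.34 (SE 0.13, unadjusted p = 0.0409, adjusted p = 0.56 from edgeR) was made of pair ratios of 0.47, 0.58 and -0.05. *Tyms*, thymidylate synthase, stood at 23.5, 23.9 and 22.9 CPM with *Sephs1* siRNA and at 16.4, 18.9 and 25.2 CPM with control siRNA. Its control libraries spread on both sides of the *Sephs1* siRNA libraries, and the log2 fold change of 0.22 (SE 0.16) did not pass the test. *Dck*, the deoxycytidine kinase, had 27.4, 29.7 and 23.5 CPM with *Sephs1* siRNA and 23.3, 23.7 and 24.2 CPM with control siRNA, a log2 fold change of 0.18 (SE 0.10).

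Other enzymes that act on deoxynucleotides did not share this arrangement. *Dut*, which removes dUTP, and *Dtymk*, which phosphorylates dTMP, had log2 fold changes of -0.12 and -0.06 and overlapping groups. *Tk2*, the mitochondrial thymidine kinase, stood at 3.34, 6.62 and 7.44 CPM with *Sephs1* siRNA and at 6.55, 6.33 and 7.11 CPM with control siRNA. A single library, *Sephs1* siRNA replicate 1, stood low, and the log2 fold change was -0.20 with it and 0.06 without it. *Dguok*, the mitochondrial deoxyguanosine kinase, was at 11.1 ± 0.196 CPM with *Sephs1* siRNA and 11.2 ± 1.28 CPM with control siRNA (SD, n = 3 each).

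**Figure D3:**
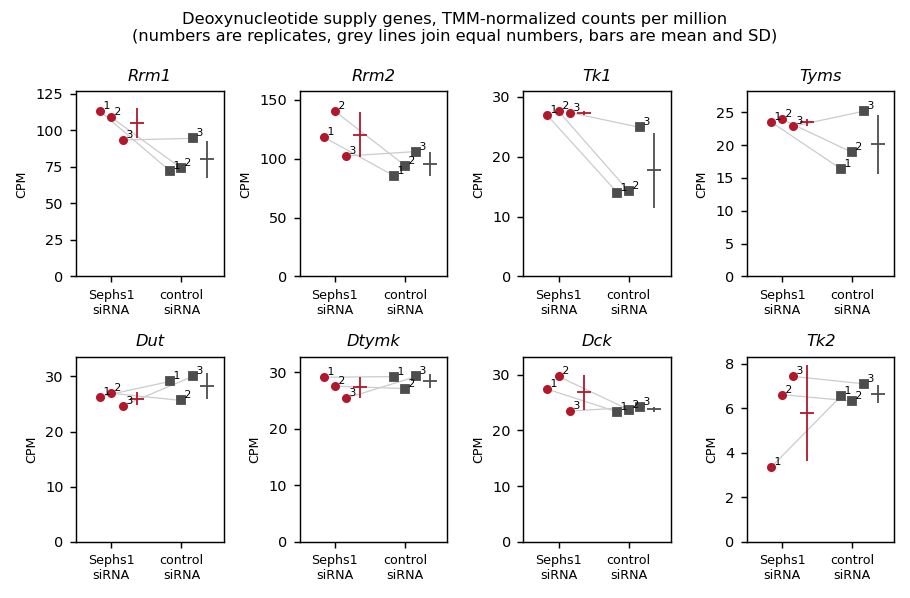
TMM-normalized CPM of 8 genes of deoxynucleotide supply in each library, *Sephs1* siRNA left of control siRNA, with replicate numbers, grey lines joining equal numbers, and the mean with SD at the right of each group. For *Tk1*, *Rrm1*, *Rrm2* and *Tyms* the lines of replicates 1 and 2 slope down toward the controls and that of replicate 3 is nearly level or slopes up; for *Tk2* 1 library stands low at 3.34.

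Proliferation markers moved with these genes across the pairs. The medians of the group of *Tyms*, *Dtymk*, *Dut*, *Rrm1* and *Rrm2* were 0.47, 0.34 and -0.14 in pairs 1, 2 and 3, and those of 20 proliferation markers were 0.70, 0.61 and 0.01. The markers summed to 1108, 1303 and 1165 CPM with *Sephs1* siRNA and to 699, 821 and 1154 CPM with control siRNA, so that control replicate 3 stood with the *Sephs1* siRNA libraries here as it did for *Tk1*. Of the 20, 9 (45%) were higher at an unadjusted p under 0.05 in edgeR, where 4.98% of all genes were. None passed an adjusted p under 0.05 in edgeR, and 4 (*Aurka*, *Ccnb1*, *Ccna2* and *Cdk1*) passed it in DESeq2. The marker list was not uniform, since *Mcm2* and *Mcm3*, subunits of the replicative helicase, had log2 fold changes of -0.11 and -0.03. *Pcna*, *Mcm4*, *Mcm5*, *Mcm6*, *Mcm7*, *Ccne1* and *Ccne2* stood between 0.006 and 0.203, none at an unadjusted p under 0.05 in edgeR. The 9 markers at that threshold were *Top2a*, *Cdk1*, *Ccna2*, *Ccnb1*, *Ccnb2*, *Plk1*, *Aurka*, *Aurkb* and *Birc5*. *Bub1* and *Mki67* stood at 0.58 and 1.05, with unadjusted p = 0.0516 and 0.211 from edgeR. *Mki67* spread widely within groups, at 46.34, 172.2 and 161.4 CPM with *Sephs1* siRNA and 16.38, 45.55 and 121.7 CPM with control siRNA. The part of a different share of cycling cells in the values of *Tk1*, *Rrm1* and *Rrm2* was not tested. Without pair 3, an alternative chosen after seeing the data, *Tyms* and *Dck* joined *Tk1*, *Rrm1* and *Rrm2* at the unadjusted threshold, which made 5 genes higher.

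In the de novo pyrimidine route, *Ctps* was the gene with an unadjusted p under 0.05, and *Cad* joined it under the replicate block or without *Sephs1* siRNA replicate 3. *Ctps*, a CTP synthase (chromosome 4, 120539868 to 120570276), had 69.9, 71.9 and 70.1 CPM with *Sephs1* siRNA and 82.7, 80.1 and 88.4 CPM with control siRNA. The groups did not overlap and each was narrow. It had the smallest p of the 44 genes, with a log2 fold change of -0.25 (SE 0.06, unadjusted p = 0.00678, adjusted p = 0.4 from edgeR) and pair ratios of -0.24, -0.16 and -0.34. Its unadjusted p stayed under 0.05 when any of the 6 libraries was left out. *Ctps2*, the paralogue, had 29.3, 26.5 and 31.4 CPM with *Sephs1* siRNA and 26.7, 26.4 and 32.6 CPM with control siRNA, a log2 fold change of 0.03 (SE 0.11) with overlapping groups. *Cad*, the enzyme that starts the route, had a log2 fold change of -0.14 (SE 0.09) and was lower in all 3 pairs. *Umps* and *Dhodh*, UMP synthase and the mitochondrial dihydroorotate dehydrogenase, were near 0 at 0.03 and -0.02, with SEs of 0.12 and 0.13.

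Among the 8 genes that make PRPP and build the purine ring, 6 had a negative fold change, and in pair 3 all 8 were lower with *Sephs1* siRNA. *Paics*, which carries out a pair of middle steps of the ring (chromosome 5, 76951302 to 76967509), had 223, 204 and 178 CPM with *Sephs1* siRNA and 266, 243 and 216 CPM with control siRNA. The replicates of the groups differed among themselves in parallel, so that the pooled groups overlapped while each pair gave nearly the same ratio, -0.25, -0.25 and -0.28. Its log2 fold change was -0.26 (SE 0.11, adjusted p = 0.592 from edgeR) and it passed with the replicate block (adjusted p = 0.0426). *Atic*, which closes the ring to IMP (chromosome 1, 71557156 to 71579403), had 81.0, 79.6 and 79.3 CPM with *Sephs1* siRNA and 95.6, 86.8 and 93.7 CPM with control siRNA. These groups did not overlap, and the fold change of -0.20 on the log2 scale (SE 0.06, unadjusted p = 0.016, adjusted p = 0.476 from edgeR) had pair ratios of -0.24, -0.13 and -0.24.

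The other genes of the purine ring had smaller values. *Prps1*, a PRPP synthetase, was at 33.6, 31.1 and 29.9 CPM with *Sephs1* siRNA and at 36.3, 34.3 and 34.4 CPM with control siRNA, which did not overlap, and its log2 fold change of -0.15 (SE 0.07) passed the unadjusted threshold only with the replicate block (unadjusted p = 0.02 from edgeR) or without *Sephs1* siRNA replicate 1. *Gart*, which serves 3 steps of the ring in 1 protein, likewise stood at -0.15 (SE 0.07) and was lower in every pair. *Ppat*, the enzyme of the committed step, had a log2 fold change of -0.14 (SE 0.16) with pair ratios of -0.23, 0.17 and -0.42. *Ppat* and *Paics* start 276 bases apart on opposite strands of chromosome 5 and overlap head to head, and whether the counting used strand is not given in the sources used here. *Adsl*, adenylosuccinate lyase, stood at -0.11 (SE 0.09), and *Prps2* and *Pfas* at 0.01 and 0.05 (SEs 0.10 and 0.14).

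At the branch from IMP, no gene of the GMP arm or the AMP arm had an unadjusted p under 0.05 in edgeR without the block, and *Impdh1* and *Impdh2* were lower at that threshold with it (unadjusted p = 0.0092 and 0.0439). *Impdh1* also passed it without *Sephs1* siRNA replicate 3 and without control replicate 2. *Impdh1*, an IMP dehydrogenase that opens the GMP arm, had 54.7, 50.6 and 65.5 CPM with *Sephs1* siRNA and 71.6, 60.6 and 70.4 CPM with control siRNA. It was lower in every pair although the groups overlapped, with a log2 fold change of -0.25 (SE 0.12, unadjusted p = 0.075 from edgeR). *Impdh2*, the more abundant form, was at 86.9, 89.7 and 98.0 CPM with *Sephs1* siRNA and at 95.2, 94.3 and 108 CPM with control siRNA, a log2 fold change of -0.12 (SE 0.08), and 73.9% of its 50-base stretches also occur in the pseudogene *Impdh2-ps*. *Gmps*, GMP synthase, and *Adss*, the adenylosuccinate synthase of the AMP arm, had values of -0.01 and -0.05 on the log2 scale. *Adssl1* had a log2 fold change of 0.18 (SE 0.15) and was higher in all 3 pairs.

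The kinases that raise monophosphates and diphosphates included 3 of the 6 genes that were lower at the unadjusted threshold. *Ak1*, the cytosolic adenylate kinase (chromosome 2, 32621758 to 32635058), had 73.6, 63.3 and 70.0 CPM with *Sephs1* siRNA and 85.1, 76.3 and 99.3 CPM with control siRNA. Its groups did not overlap, and its log2 fold change of -0.33 (SE 0.11, unadjusted p = 0.0212, adjusted p = 0.493 from edgeR) was the lowest of the 44. *Guk1*, the guanylate kinase (chromosome 11, 59183855 to 59192207), had 21.0, 20.6 and 21.6 CPM with *Sephs1* siRNA and 25.4, 22.3 and 26.8 CPM with control siRNA. Again every *Sephs1* siRNA library lay below every control library, with a log2 fold change of -0.24 (SE 0.09, unadjusted p = 0.0357, adjusted p = 0.545 from edgeR). *Cmpk1*, the UMP and CMP kinase, was at 127, 122 and 111 CPM with *Sephs1* siRNA and at 142, 141 and 119.9 CPM with control siRNA. It was lower in all 3 pairs, at -0.16 (SE 0.09). The mitochondrial adenylate kinases *Ak3* and *Ak4* had log2 fold changes of -0.03 and 0.06, with pair ratios on both sides of 0.

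All 5 nucleoside diphosphate kinase genes had a negative fold change, between -0.25 and -0.05. *Nme1* (chromosome 11, 93958925 to 93968272) had 93.5, 83.9 and 88.4 CPM with *Sephs1* siRNA and 113, 99.2 and 104 CPM with control siRNA. The groups did not overlap, and the log2 fold change was -0.25 (SE 0.08, unadjusted p = 0.0152, adjusted p = 0.475 from edgeR) with pair ratios of -0.27, -0.24 and -0.23. *Nme2*, its neighbour 11769 bases away between start sites, had 224, 218 and 267 CPM with *Sephs1* siRNA and 236, 237 and 286 CPM with control siRNA, a log2 fold change of -0.10 (SE 0.11). The read-through gene *Gm20390* shares exons with both, and 54.5% of the 50-base stretches of *Nme2* and 11.8% of those of *Nme1* occur in it, so their counts are uncertain. *Nme3*, *Nme4* and *Nme6* had log2 fold changes of -0.12, -0.16 and -0.05 (SEs 0.13, 0.16 and 0.15), and 90.1% of the stretches of *Nme3* also occur in *Mrps34*.

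**Figure D4:**
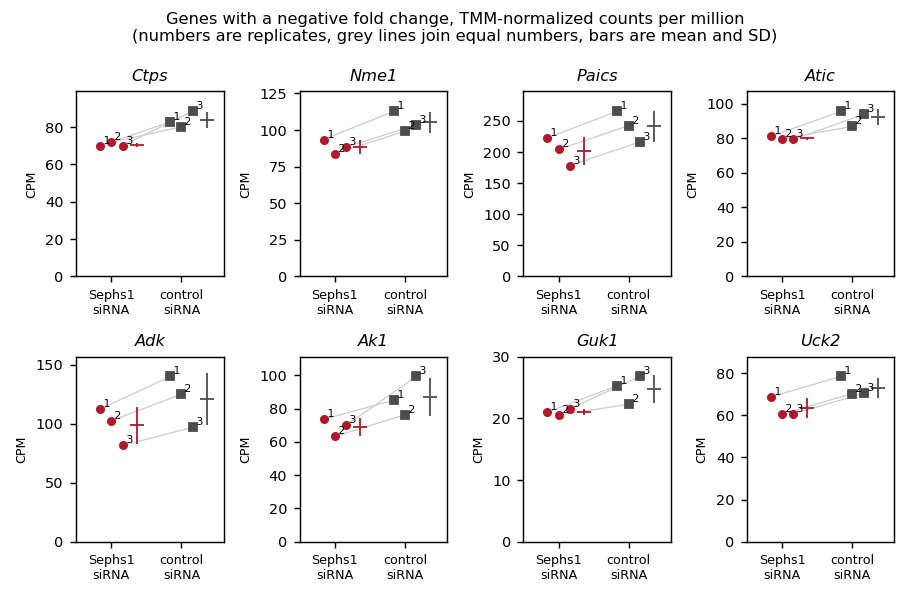
TMM-normalized CPM of 8 genes with a negative fold change in each library, *Sephs1* siRNA left of control siRNA, with replicate numbers, grey lines joining equal numbers, and the mean with SD at the right of each group. All lines rise toward the controls; for *Paics* and *Adk* the groups overlap although the lines are parallel.

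Of the purine salvage genes, *Adk* had the lowest fold change and the most even ratios. *Adk*, adenosine kinase, which returns adenosine to AMP (chromosome 14, 21052574 to 21448569), had 112, 102.5 and 81.6 CPM with *Sephs1* siRNA and 140.1, 125 and 97.0 CPM with control siRNA. Replicate 3 was the lowest in both groups, which made the groups overlap, while the pair ratios were -0.32, -0.29 and -0.25. The log2 fold change was -0.29 (SE 0.17, adjusted p = 0.69 from edgeR), and with the replicate block *Adk* passed narrowly (adjusted p = 0.0496). *Hprt*, which salvages hypoxanthine and guanine, was at 102, 96.3 and 82.6 CPM with *Sephs1* siRNA and at 111, 111 and 88.5 CPM with control siRNA, and *Aprt*, which salvages adenine, at 33.9, 30.02 and 41.7 CPM with *Sephs1* siRNA and at 40.8, 37.9 and 45.4 CPM with control siRNA. Both were lower in every pair, at -0.15 and -0.23 on the log2 scale (SEs 0.12 and 0.14). *Pnp*, purine nucleoside phosphorylase, stood at 0.03 (SE 0.10), and 25.2% of its 50-base stretches occur in other genes.

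The uridine-cytidine kinases, which salvage pyrimidine ribonucleosides, had fold changes of opposite sign. *Uck2* (chromosome 1, 167222895 to 167285933) had 68.8, 60.5 and 60.6 CPM with *Sephs1* siRNA and 78.4, 70.2 and 70.4 CPM with control siRNA, and *Uck1* had 24.8, 24.1 and 24.4 CPM with *Sephs1* siRNA and 23.6, 22.4 and 23.9 CPM with control siRNA. The groups did not overlap for either gene, with *Uck2* lower and *Uck1* slightly higher in all 3 pairs. The log2 fold changes were -0.21 for *Uck2* (SE 0.08, unadjusted p = 0.0426, adjusted p = 0.565 from edgeR) and 0.07 for *Uck1* (SE 0.07). As a share of the FPKM of both genes, *Uck1* made up 20.9% ± 1.00 with *Sephs1* siRNA and 17.9% ± 0.893 with control siRNA (SD, n = 3 each). *Uck1* shares 24.5% of its 50-base stretches with other genes, and its exons overlap those of *Pomt1* on the opposite strand. *Upp1* had 1.16, 1.66 and 0.947 CPM with *Sephs1* siRNA and 1.38, 1.15 and 1.62 CPM with control siRNA, a log2 fold change of -0.14 (SE 0.28) with overlapping groups.

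Counted over the group, 7 genes had every *Sephs1* siRNA library below every control library (15.9%, where 7.09% of all genes did), namely *Ctps*, *Nme1*, *Prps1*, *Atic*, *Guk1*, *Ak1* and *Uck2*. Another 2 genes, *Tk1* and *Uck1*, had every *Sephs1* siRNA library above (4.55%, where 7.8% of all genes did). These 7 genes come from 5 of the 8 roles, so no role alone held the separated genes. By role, the lowest median was that of purine salvage at -0.19, followed by the monophosphate kinases at -0.16 and the PRPP and purine ring genes at -0.14. The highest was that of thymidylate and ribonucleotide reductase at 0.22, and it was the role whose pair medians differed most.

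**Figure D5:**
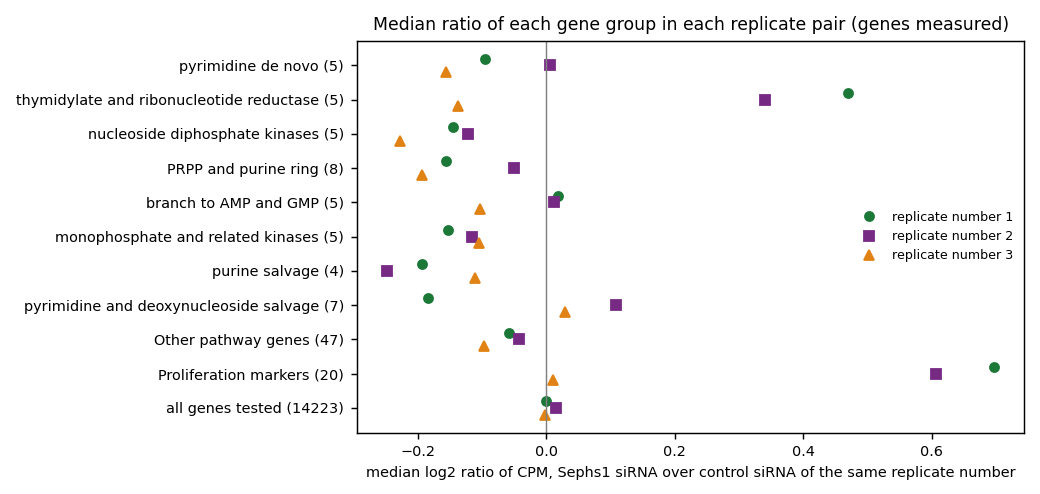
Median log2 ratio of CPM, *Sephs1* siRNA over control siRNA of the same replicate number, for each role, for other pathway genes, for proliferation markers and for all genes tested, with the number of genes measured in brackets. Thymidylate and ribonucleotide reductase genes and proliferation markers stand to the right in replicates 1 and 2 only, while purine ring genes, nucleoside diphosphate kinases, monophosphate kinases and purine salvage lie left of 0 in all 3.

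Breakdown, transport, one-carbon and minor kinase genes of the same pathways gave a further list of 53, of which 47 were measured in every library. None passed an adjusted p under 0.05 in edgeR, and *Nt5e* alone passed it in DESeq2 (adjusted p = 0.0369). At an unadjusted p under 0.05, 2 (4.26%) were higher and 5 (10.6%) were lower in edgeR, where 4.98% and 3.63% of all genes were. The list median was -0.06. *Nt5e*, the surface enzyme that makes adenosine from AMP outside the cell, had 177, 173 and 139 CPM with *Sephs1* siRNA and 241, 208 and 224 CPM with control siRNA, with no overlap and a log2 fold change of -0.46 (SE 0.11). *Slc29a1*, a transporter that moves nucleosides across the membrane, had 132, 129 and 142 CPM with *Sephs1* siRNA and 182, 149.8 and 191 CPM with control siRNA, likewise without overlap and at -0.37 (SE 0.10).

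*Dctd* and *Cda*, deaminases of deoxycytidylate and cytidine, had log2 fold changes of -0.31 and -0.35 (SEs 0.10 and 0.11), and *Mthfd2*, a mitochondrial enzyme of one-carbon supply that lies outside the naming rule and was picked after its value was seen, had one of -0.18. In the other direction, *Gda*, guanine deaminase, had 17.7, 20.8 and 20.2 CPM with *Sephs1* siRNA and 8.84, 14.7 and 15.8 CPM with control siRNA. The groups did not overlap, and the log2 fold change was 0.58 (SE 0.21, unadjusted p = 0.0311, adjusted p = 0.535 from edgeR). *Uprt*, *Ampd3* and *Xdh* stood at 0.42, 0.10 and 0.39 with SEs of 0.33, 0.09 and 0.41. All of them were higher in every pair, with *Xdh* ratios of 0.71, 0.24 and 0.32. With the replicate block, *Gda* and *Xdh* had unadjusted p = 0.0041 and 0.00538 (adjusted p = 0.0785 and 0.0861) from edgeR. That fit had 3 of the 47 genes (6.38%) higher and 8 (17.0%) lower at an unadjusted p under 0.05. The shares of all genes were 13.1% and 11.2%. *Cmpk2*, a mitochondrial nucleotide kinase known as an interferon-induced gene and picked after its values were seen, had 0.609, 0.991 and 0.580 CPM with *Sephs1* siRNA and 0.376, 0.306 and 0.359 CPM with control siRNA. *Nt5c1a*, *Nt5c1b* and *Dpys* had 0 reads in all 6 libraries.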

How the data were processed

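mRNA libraries were made from 1 µg of total RNA with a stranded kit. The authors aligned reads to mm10 and quantified genes, and the submitters' processing notes name HISAT2 2.1.0 and StringTie 1.3.4d. The deposited table holds the authors' raw read counts and their FPKM values, scaled to transcript length and library size. Whether counting used strand is not given in the sources used here. Differential expression was tested on the counts (edgeR 4.0.16, R 4.3.3, TMM scaling, quasi-likelihood test, Benjamini-Hochberg adjustment over 14223 genes with a read in every library, the filter of the study's methods). Standard errors were obtained by dividing each log2 fold change by the root of its F statistic. P-values set the difference between the groups against the spread between libraries. With the replicate block, the part of that spread shared by equal replicate numbers was taken out.

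Alternatives were RLE scaling, other filters, a replicate block, each library left out, DESeq2 1.42.0, and limma 3.58.1 on log2 FPKM values after adding a pseudocount of 1 or of 0.1. Deviations from group means of libraries sharing a replicate number correlated at 0.518, 0.271 and 0.502 over 14223 genes, each above 0.1, and equal numbers were treated as pairs. The methods name no pairing, so the fit without the block stayed the principal one. No 2 libraries of a group agreed within sampling noise. Fits were tested on simulated data with 200 changed genes.

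The 44 genes and all gene lists were chosen with earlier results of these data known. All libraries' values are given for genes of the 44 at an unadjusted p under 0.05 without the block or called in either edgeR fit. They are also given for the most abundant and the most changed gene of each role. Of the other pathway genes, up to 4 per direction are named, by smallest p among those averaging at least 1 CPM. Shared 50-base stretches were counted in GENCODE transcripts. Promoter sequences came from RefSeq.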

Additional observations from a re-analysis of the deposited data

How the results depend on the processing

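Over all genes, 2 were called at an adjusted p under 0.05, against 234 with the replicate block, 211 with DESeq2, 0 and 1 with limma on log2(FPKM + 1) and log2(FPKM + 0.1), 0 without pair 3 (chosen after seeing the data) and 0 to 3 with a library left out. Of the 44 genes, 2 were called with the block (*Paics* and *Adk*) and none under the other alternatives. *Sephs1* passed with the block and with DESeq2. *Nt5e*, *Aurka*, *Ccnb1*, *Ccna2* and *Cdk1* passed with DESeq2, and no other pathway gene or proliferation marker passed with the block. The number higher at an unadjusted p under 0.05 was 5 without pair 3 and ran between 0 and 4 with a library left out. The number lower was 17 with the block, 2 with limma under either pseudocount and between 2 and 8 with a library left out. The median of the 44 genes (-0.115) stayed negative under every alternative run, but was nearer 0 with limma (-0.049 and -0.054) and without pair 3 (-0.071), and ran between -0.15 and -0.064 with a library left out. RLE scaling, no filter and filterByExpr left all these counts as they were. Of 756 values of named genes under alternatives, 46 in 17 genes changed sign. With limma at pseudocounts 1 and 0.1, *Dhodh* was 0.033 and 0.044, *Nme6* 0.006 and 0.007, *Gmps* 0.04 and 0.042, *Adss* 0.006 at both, *Ak3* 0.036 and 0.038, and *Dguok* 0.043 and 0.047, where the median of all genes was 0.041 and 0.062. Without pair 3, *Dhodh* was 0.059, *Dtymk* 0.008, *Gmps* 0.018, *Adss* 0.014, *Ak4* -0.03 and *Upp1* 0.163. With a library left out, values crossed 0 for *Dhodh* (-0.118 to 0.085), *Umps* (-0.074 to 0.158), *Ctps2* (-0.038 to 0.131), *Nme6* (-0.161 to 0.013), *Prps2* (-0.056 to 0.053), *Ppat* (-0.285 to 0.008), *Pfas* (-0.052 to 0.205), *Gmps* (-0.089 to 0.059), *Adss* (-0.119 to 0.008), *Ak3* (-0.14 to 0.067), *Ak4* (-0.073 to 0.125), *Tk2* (-0.419 to 0.063), *Dguok* (-0.075 to 0.07), *Upp1* (-0.393 to 0.029), *Pnp* (-0.05 to 0.102) and *Xdh* (-0.028 to 0.877). The cause of these shifts was not tested. With 3 libraries a group and no block, no fold change of the 44 genes passed adjustment in edgeR or DESeq2, and a p that misses the threshold does not show equal levels.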
